A study of Arabidopsis thaliana with 8 samples.

Results

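A set of 33 Arabidopsis thaliana genes was measured at an intermediate level on all 4 arrays of the tic40 mutant, at a higher level on wild-type (WT) samples 3 and 4, and at a lower level on WT samples 1 and 2. The genes were selected by that order: after quantile normalization, WT samples 1 and 2 had to lie below every tic40 value, WT samples 3 and 4 above every tic40 value, and the means of the WT pairs at least 1 apart on the log2 scale. A gene also needed a probe annotated with that gene alone, a deposited value above 0 on all 8 arrays, and a mean level under percentile 90 of the probes, which was a normalised intensity of 1.89. Of 692 genes with a probe of their own, 612 were above 0 on every array and 34 met all criteria. The rule sets 4 genes aside, 1 of which was among those 34, and 33 remained. Because the WT and tic40 values chose the genes, their order across the arrays is a description and carries no test.

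The arrays hold total RNA of the tic40 mutant (4 samples) and of WT plants (4 samples), all of ecotype Columbia 0 and numbered 1 to 4 in each genotype. The labels give no tissue, age or growth conditions, and nothing says that the samples came from separate plants, so the spread between them may be technical. The study set a mutant with reduced protein import into chloroplasts against its wild type.

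TIC40 is a membrane protein of the inner chloroplast envelope that works with the import channel and with stromal chaperones. Most chloroplast proteins are encoded in the nucleus, made in the cytosol as precursors and imported through complexes of the outer and inner envelope. Loss of TIC40 slows this import and gives pale plants. The level of TIC40 itself is not analysed here.

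WT samples 3 and 4 stood apart from the other 6 arrays. Across the 3083 probes above 0 on all arrays, the log2 levels of WT samples 3 and 4 correlated at 0.956 with each other, at 0.713 to 0.767 with the tic40 arrays and at 0.687 to 0.701 with WT samples 1 and 2. WT samples 1 and 2 correlated at 0.952 with each other and at 0.879 to 0.904 with the tic40 arrays. The median deposited intensity was 0.568 to 0.604 on the tic40 arrays, 0.559 and 0.564 on WT samples 3 and 4, and 0.361 and 0.354 on WT samples 1 and 2. Whether the samples of a pair shared plants, RNA or a hybridisation day is not given in the sources used here. The order that defines the 33 genes was met by 199 probes of any annotation under the same limit on level, and the opposite order, with WT samples 1 and 2 on top, by 145 probes and 30 genes.

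Of the 33 genes, 3 carry a name in the reference gene table and 30 are listed by locus code alone. LPA19 (AT1G05385) takes part in the assembly of photosystem II, where it helps to mature the D1 reaction centre protein. Its normalised intensities were 0.542, 0.572, 0.616 and 0.639 in tic40 samples 1 to 4, against 1.24 and 1.29 in WT samples 3 and 4 and 0.499 and 0.524 in WT samples 1 and 2. The tic40 values lay close above the lower WT pair, at 16.0% of the log2 distance between the WT pairs, which was the lowest such position among the 33 genes.

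CHL, the chloroplastic lipocalin, is a small lipid-binding protein that protects thylakoid membranes from oxidative damage. It was at 0.405, 0.395, 0.383 and 0.354 in tic40, against 0.653 and 0.594 in WT samples 3 and 4 and 0.301 and 0.223 in WT samples 1 and 2. GH9B16 belongs to glycosyl hydrolase family 9, whose plant members include endoglucanases that act on cell wall glucans. Its values were 0.589, 0.580, 0.732 and 0.701 in tic40, against 1.16 and 1.09 in WT samples 3 and 4 and 0.443 and 0.350 in WT samples 1 and 2. WT samples 3 and 4 exceeded WT samples 1 and 2 by 2.40-fold for CHL, 2.86-fold for GH9B16 and 2.47-fold for LPA19, with folds taken from differences of mean log2 values.

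**Figure D1:**
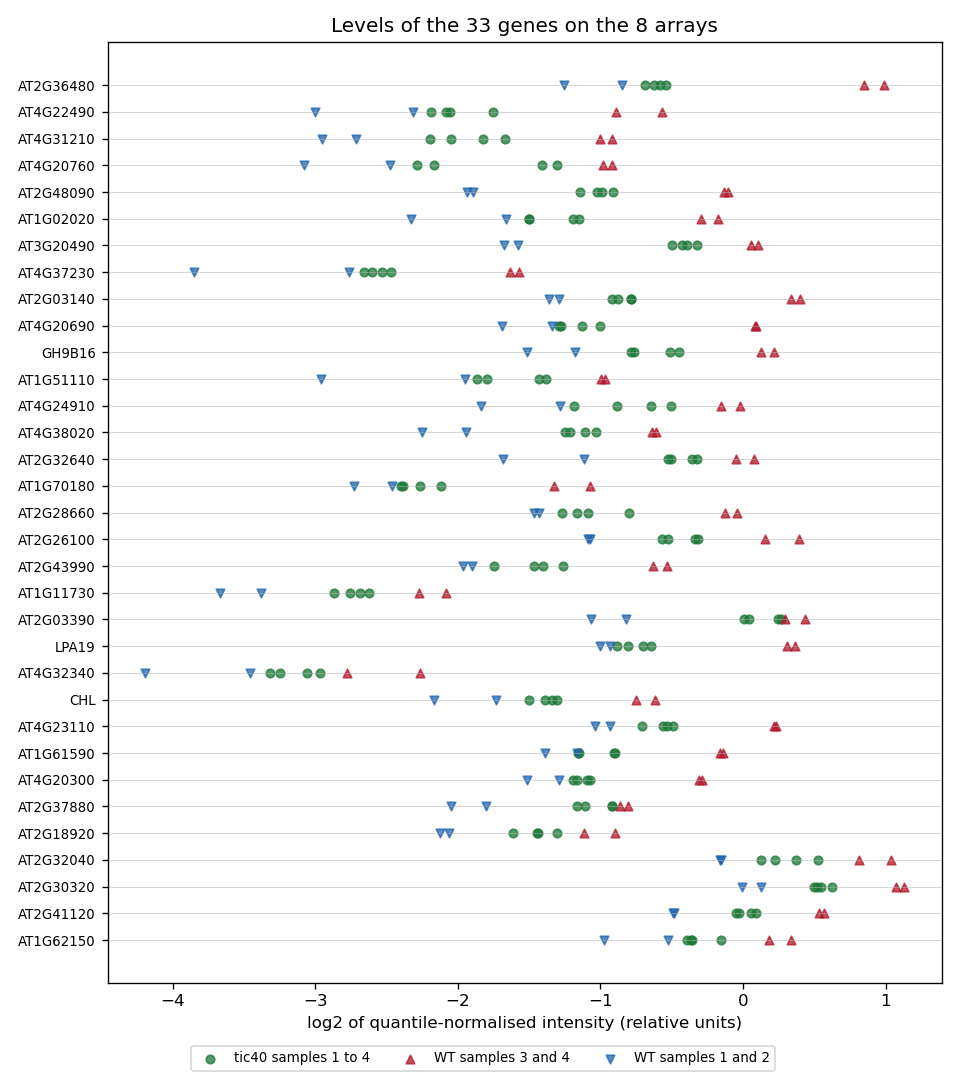
Log2 of the quantile-normalised intensity (x axis, relative units) of the 33 genes (rows, ordered by the distance between the WT pairs) on each of the 8 arrays. Circles are tic40 samples 1 to 4, upward triangles WT samples 3 and 4, and downward triangles WT samples 1 and 2. By the selection rule no row has overlapping groups, but in 8 rows a WT array lies within 0.1 of a tic40 array.

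The largest distances between the WT pairs were those of AT2G36480 and AT4G22490. AT2G36480 had 0.649, 0.621, 0.688 and 0.667 in tic40, against 1.80 and 1.98 in WT samples 3 and 4 and 0.418 and 0.556 in WT samples 1 and 2, and the WT pairs differed by 3.92-fold. AT4G22490 had 0.219, 0.236, 0.240 and 0.296 in tic40, against 0.539 and 0.675 in WT samples 3 and 4 and 0.125 and 0.201 in WT samples 1 and 2, a 3.81-fold difference between the WT pairs. In both genes the tic40 arrays sat nearer to WT samples 1 and 2. AT4G31210 was at 0.219, 0.242, 0.315 and 0.283 in tic40, against 0.529 and 0.499 in WT samples 3 and 4 and 0.152 and 0.129 in WT samples 1 and 2. The values of AT2G48090 in tic40 were 0.504, 0.491, 0.453 and 0.532, against 0.913 and 0.929 in WT samples 3 and 4 and 0.261 and 0.269 in WT samples 1 and 2. The tic40 means of these genes lay near the middle of the log2 distance, at 48.2% for AT4G31210 and 50.0% for AT2G48090.

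AT1G02020 measured 0.437, 0.451, 0.354 and 0.354 in tic40, against 0.814 and 0.884 in WT samples 3 and 4 and 0.199 and 0.316 in WT samples 1 and 2. AT3G20490 was at 0.742, 0.801, 0.760 and 0.708 in tic40, against 1.04 and 1.07 in WT samples 3 and 4 and 0.336 and 0.313 in WT samples 1 and 2, so that its tic40 arrays lay nearer to the upper WT pair. The dim gene AT4G37230 had 0.158, 0.181, 0.165 and 0.173 in tic40, against 0.322 and 0.336 in WT samples 3 and 4 and 0.147 and 0.0695 in WT samples 1 and 2. Its lower WT values were themselves far apart, while the tic40 arrays lay between 0.158 and 0.181. The value in WT sample 2 was near percentile 1 of the positive values there (0.0665), and without that sample the log2 distance was 1.15. AT4G32340, at 0.0548 in WT sample 1, lay under percentile 1 of that array (0.0583). WT samples 1 and 2 had 260 and 277 probes at 0, against 174 to 204 on the other arrays. A gap of over 0.5 on the log2 scale between WT samples 1 and 2 occurred in 8 of the 33 genes, and between WT samples 3 and 4 in 1.

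The 3 genes with the smallest distance lay at 2.06-fold (AT2G30320), 2.05-fold (AT2G41120) and 2.01-fold (AT1G62150). AT2G30320 had 1.46, 1.44, 1.41 and 1.54 in tic40, against 2.11 and 2.19 in WT samples 3 and 4 and 1.09 and 0.996 in WT samples 1 and 2. AT2G41120 had 1.07, 0.964, 0.982 and 1.04 in tic40, against 1.48 and 1.45 in WT samples 3 and 4 and 0.710 and 0.715 in WT samples 1 and 2. These were also among the brightest of the set, whose mean levels ran from 0.119 to 1.53 with a median of 0.566, against a median of 0.598 over all 3083 probes. AT1G62150 had 0.779, 0.899, 0.778 and 0.763 in tic40, against 1.13 and 1.27 in WT samples 3 and 4 and 0.510 and 0.694 in WT samples 1 and 2. Just outside the limit of 1 lay AT4G33500 (log2 distance 0.997), AT2G46630 (0.973) and GH9B11 (0.970), a gene of the same hydrolase family as GH9B16. A further 5 genes met the order and the distance but were too bright for the rule.

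Apart from AT4G20760, AT1G51110 and AT4G24910, described below, the other 17 genes had distances between the WT pairs of 2.12-fold to 3.24-fold. AT2G03140 had 3.24-fold and AT4G20690 3.04-fold. From 2.77-fold down to 2.47-fold came AT4G38020, AT2G32640, AT1G70180, AT2G28660, AT2G26100, AT2G43990, AT1G11730, AT2G03390 and AT4G32340. AT4G23110, AT1G61590, AT4G20300, AT2G37880, AT2G18920 and AT2G32040 had 2.32-fold or less. Over all 33 genes the median was 2.58-fold. The tic40 mean was nearer to WT samples 1 and 2 in 21 genes and nearer to WT samples 3 and 4 in 12, with a median position of 46.7% and a highest of 82.9% for AT2G03390. With the values as deposited the median position was 64.5%, on the side of WT samples 3 and 4, so the nearer pair depends on the scaling. In AT2G03390 the highest tic40 value, 1.21 in sample 3, lay just under the 1.23 of WT sample 3.

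With tic40 set against all WT samples, none of these genes passed the test. Differences were fitted per probe with limma over 3318 probes, and 0 of the 33 genes passed a Benjamini-Hochberg adjusted p of 0.05, against 7.69% of all probes called (255), and 0 had an unadjusted p under 0.05, against 803 of all probes. The log2 differences of tic40 minus WT ran from -0.54 for AT2G36480 to 0.43 for AT2G03390, with limma adjusted p-values of 0.458 or higher. This contrast uses the values that chose the genes, and the spread of WT was set high by that choice: CHL averaged 0.384 ± 0.0223 in tic40 and 0.442 ± 0.212 in WT, and LPA19 0.592 ± 0.0436 in tic40 and 0.888 ± 0.435 in WT (SD, n = 4 each). When sample number entered the fit as a replicate block, 5 of all probes were called and again 0 of the 33 genes. Each direction held 0 of the 33 genes, against 2.32% of all probes higher and 5.36% lower in tic40. The split over all probes, 77 higher and 178 lower, turned to 311 higher and 46 lower with the values as deposited, where again 0 of the 33 genes were called.

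Within pairs of the same number the genotypes were ordered as the rule requires, so these counts are descriptions. In samples 3 and 4 alone, 30 of the 33 genes passed the limma test as lower in tic40, against 34.9% of all probes, and 0 as higher, against 25.3%. In samples 1 and 2 alone, 12 passed as higher in tic40, against 13.5% of all probes, and 0 as lower, against 17%.

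The rule did not fix how the tic40 arrays differ among themselves. For tic40 samples 3 and 4 minus tic40 samples 1 and 2, the log2 differences of the 33 genes had a median of 0.08, with 20 genes above 0 and 13 below, beside a median of 0.03 over all 3083 probes. Over the 608 genes with a probe of their own, above 0 on every array and not set aside, it was -0.003. Of these, 302 were above 0 and 306 below. Both values of tic40 samples 3 and 4 exceeded both of tic40 samples 1 and 2 in 16 of the 33 genes, against 38% of all probes, and lay below them in 7, against 32.6% of all probes. The absolute difference was under 0.2 in 19 genes and over 0.4 in 3, although the rule, which confines the tic40 values between the WT pairs, limits its size.

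Those 3 genes were AT4G20760, AT4G24910 and AT1G51110, and in each of them tic40 samples 3 and 4 were higher than tic40 samples 1 and 2. AT4G20760 had 0.405 and 0.377 in tic40 samples 3 and 4 and 0.223 and 0.205 in tic40 samples 1 and 2, against 0.528 and 0.507 in WT samples 3 and 4 and 0.180 and 0.119 in WT samples 1 and 2. In this gene each tic40 pair lay beside the WT pair with the same numbers. AT4G24910 had 0.705 and 0.640 in tic40 samples 3 and 4 and 0.440 and 0.542 in tic40 samples 1 and 2, against 0.986 and 0.898 in WT samples 3 and 4 and 0.280 and 0.411 in WT samples 1 and 2. AT1G51110 had 0.384 and 0.370 in tic40 samples 3 and 4 and 0.275 and 0.288 in tic40 samples 1 and 2, against 0.512 and 0.502 in WT samples 3 and 4 and 0.259 and 0.128 in WT samples 1 and 2. The pairs in tic40 were separated by log2 differences of 0.87, 0.46 and 0.42 in these genes, against 1.82, 1.47 and 1.48 in WT.

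**Figure D2:**
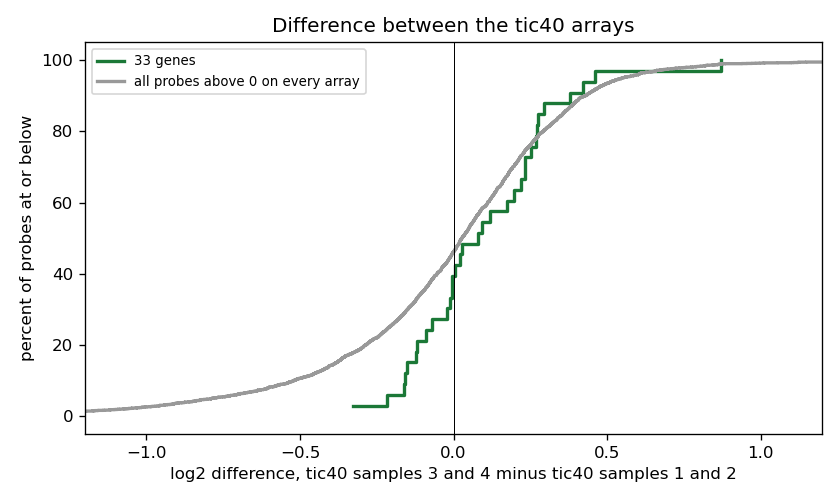
Cumulative percent of probes (y axis) by the log2 difference between tic40 samples 3 and 4 and tic40 samples 1 and 2 (x axis), for the 33 genes and for the 3083 probes above 0 on every array, whose tails run beyond the axis. The median is 0.08 for the 33 genes and 0.03 for all probes, and the widest value among the 33 genes is 0.87 for AT4G20760.

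The genes were unevenly spread over the chromosomes. In the counts by chromosome and probe number, genes with a probe of their own are the 608 above 0 on every array and not set aside. Chromosome 2 held 13 of them among its 115 genes with a probe of their own (11.3%), chromosome 4 held 11 of 111 (9.91%), chromosome 1 held 7 of 140 (5%), chromosome 3 held 2 of 120 (1.67%) and chromosome 5 held 0 of 120. The 30 genes with the opposite order showed the reverse, with 11 on chromosome 5, 8 on chromosome 3, 6 on chromosome 1 and 2 each on chromosomes 2 and 4. A difference between chromosomes was also present without selection of the extreme genes. Over all genes with a probe of their own, the median log2 difference of WT samples 3 and 4 minus WT samples 1 and 2 was 0.04, 0.54, -0.20, 0.35 and -0.28 on chromosomes 1 to 5. With the 33 genes and the 30 of opposite order left out, the medians were 0.04, 0.46, -0.18, 0.29 and -0.20. Probes that list several genes, all on 1 chromosome, had medians of -0.40, 0.72, -0.05, 0.32 and 0.03. Among them chromosome 2 was again highest, but chromosome 1 was lowest. On chromosome 5, 3 of 45 such probes met the same order and limits as the 33 genes. Of the 5 genes kept out only by the limit on level, DRT101 lies on chromosome 5, with a log2 distance of 1.02. The others lie on chromosomes 2 and 4. The closest neighbours among the 33 genes were AT4G20690 and AT4G20760, which are 13 loci apart in the order of the gene table.

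**Figure D3:**
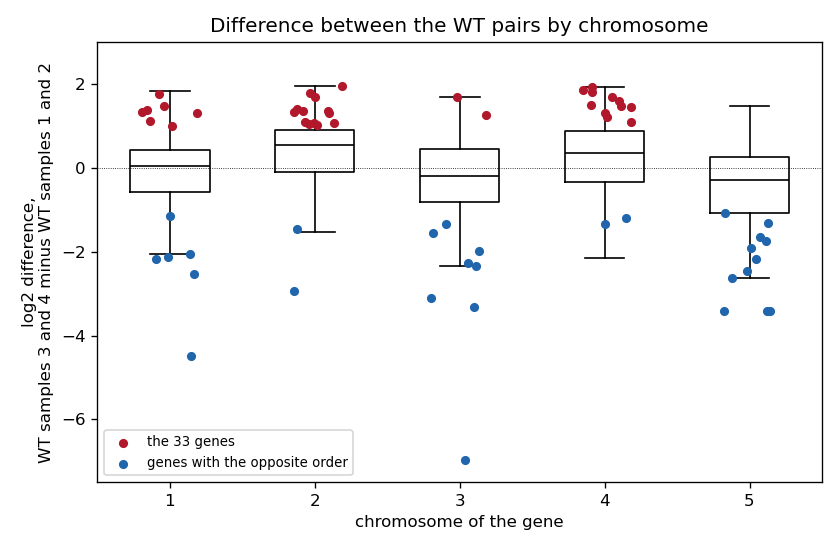
Log2 difference of WT samples 3 and 4 minus WT samples 1 and 2 (y axis) by chromosome (x axis). Boxes give the quartiles of all genes with a probe of their own and whiskers reach 1.5 times the box length; red points are the 33 genes, blue points the opposite-order genes with a known chromosome, and other values beyond the whiskers are not drawn. The median is highest on chromosome 2 (0.54) and lowest on chromosome 5 (-0.28), which holds 0 of the 33 genes.

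The difference between the WT pairs also followed the number that the table gives each probe, from 1 up to 4607. Among distances in multiples of 24 numbers the likeness between probes was highest at 288. Over probes 288 numbers apart, the differences of WT samples 3 and 4 minus WT samples 1 and 2 correlated at r = 0.324 (2185 probe pairs), and over probes 144 numbers apart at r = -0.0935 (2120 pairs). The difference of tic40 samples 3 and 4 minus tic40 samples 1 and 2 did the same, with 0.386 and -0.0765. These correlations are across probes that share the same arrays. Within the pairs there was less of it: at 288 numbers apart, r was -0.0195 for WT sample 4 minus WT sample 3, 0.104 for WT sample 2 minus WT sample 1 and 0.110 for the mean level of the probes. The sources used here do not say whether the numbers follow the places of the spots on the array.

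The cycle of 288 numbers was divided into 12 steps of 24, a choice made after the pattern had been seen. In steps 1 to 4 and in step 12 the median log2 difference between the WT pairs over all probes was 0.44 to 0.50, and it was 0.03 in step 5 and between -0.59 and -0.19 in steps 6 to 11. The median tic40 difference over all probes in steps 1 to 4 and 12 was 0.09 to 0.14, beside 0.08 for the 33 genes. Of the 33 genes, 27 (81.8%) had their probe in steps 1 to 4 or 12. Among the 30 genes with the opposite order, 5 did. Those steps hold 39.0% (237 of 608) of the genes with a probe of their own. They were grouped for a high difference between the WT pairs, which also chose the genes. The excess is therefore a description. The wave was widest in WT samples 3 and 4, whose median normalised intensity per step ran from 0.340 to 0.903 and from 0.349 to 0.877, against 0.484 to 0.680 in WT sample 1 and 0.504 to 0.713 in WT sample 2. Tic40 samples 3 and 4 ranged from 0.378 to 0.757 and from 0.388 to 0.744, and tic40 samples 1 and 2 from 0.50 to 0.696 and from 0.50 to 0.699. In both genotypes samples 3 and 4 thus had wider ranges than samples 1 and 2, and over the 96 runs of 48 consecutive numbers the medians of the WT and the tic40 difference correlated at 0.577, as a description across runs of the same arrays.

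A finer pattern ran across the numbers as well. Probes whose number divides by 6 without remainder (188 probes) had a median log2 difference of -0.83 between the WT pairs, with median intensities of 0.250 and 0.245 in WT samples 3 and 4 and 0.538 and 0.584 in WT samples 1 and 2. The other remainders had medians of -0.15 to 0.28. None of the 33 genes (0 of the 42 genes with such a probe) and 9 of the 30 genes with the opposite order had a number of that kind. In remainders 1 to 5, the 33 genes made up 4 of 113, 8 of 112, 10 of 112, 8 of 120 and 3 of 109 genes with a probe of their own. Both patterns were present before normalization, where the median difference was -0.28 for remainder 0 and 0.38 to 0.87 for the others, on a scale where the median of all probes is 0.64.

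**Figure D4:**
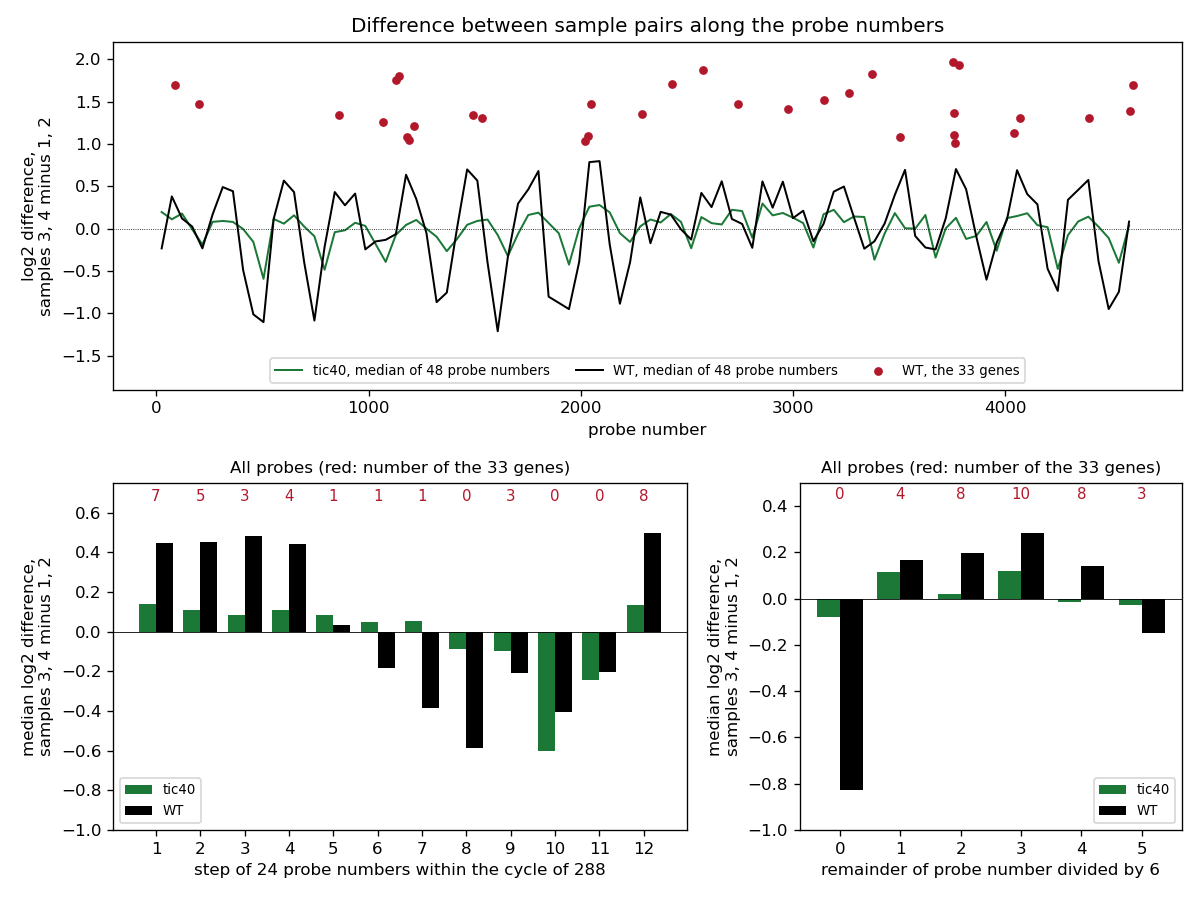
Log2 difference of samples 3 and 4 minus samples 1 and 2 for tic40 (green) and WT (black), as medians over all probes in runs of 48 consecutive probe numbers (top), in 12 steps of the cycle of 288 (bottom left) and by the remainder of the number after division by 6 (bottom right). Red points and red counts are the 33 genes. The WT medians rise and fall with the cycle, and 27 of the 33 genes have probes in steps 1 to 4 or 12, where the WT medians are 0.44 to 0.50.

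Chromosome and probe number went together. Steps 1 to 4 and 12 held 72.1% of the genes on chromosome 4, 65.2% on chromosome 2, 36.4% on chromosome 1, 18.3% on chromosome 3 and 6.67% on chromosome 5. Inside these steps the median log2 difference between the WT pairs was above 0 on each of the 5 chromosomes, at 0.35, 0.69, 0.29, 0.48 and 0.39 for chromosomes 1 to 5. In the other steps it was -0.21, -0.14, -0.33, 0.19 and -0.30. The medians inside the steps rest on 51, 75, 22, 80 and 8 genes. Because those steps were grouped for their high WT medians, values above 0 inside them carry no test. Once each array had been centred on its median within steps, the chromosome medians lay between -0.01 (chromosome 5) and 0.25 (chromosome 2). With that centring the rule was met by 6, 6, 4, 8 and 3 genes on chromosomes 1 to 5, so the 0 on chromosome 5 depends on the scaling.

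Centring each array by probe number, an alternative added after the data had been seen, shortened the distance between the WT pairs for most of the 33 genes. Within steps and then within the 6 remainders, the median distance was 0.93 on the log2 scale, against 1.36 without centring, and 14 of the 33 genes still met the whole rule. These 14 were AT2G36480, AT4G22490, AT4G31210, AT4G20760, AT2G48090, AT1G02020, AT3G20490, AT2G03140, GH9B16, AT1G51110, AT4G38020, AT2G32640, AT1G70180 and CHL. For AT4G20760, AT3G20490, AT4G38020, AT1G51110 and CHL the distance grew, to 2.33, 2.07, 1.83, 1.75 and 1.63. LPA19 fell to 0.67, under the minimum, although its WT values still lay on either side of all tic40 values. The 8 genes with the smallest distance before centring, from AT1G61590 down to AT1G62150, all had 0.66 or less after it. Over all probes the SD of the difference between the WT pairs was 1.03 with and 1.15 without this centring. That SD includes extreme values, down to -12.6 without centring, and the cause of the spread was not tested.

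**Figure D5:**
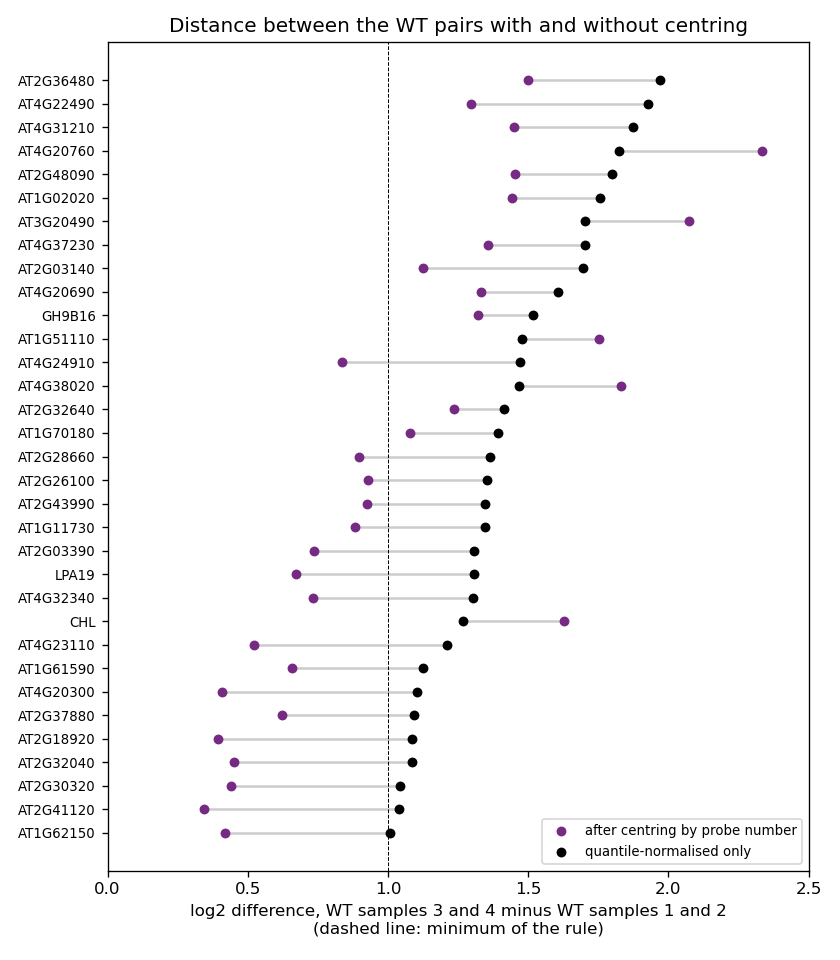
Log2 difference of WT samples 3 and 4 minus WT samples 1 and 2 (x axis) for the 33 genes (rows), after centring each array within steps and remainders of the probe number (purple) and with quantile normalization only (black). The dashed line is the minimum of 1 set by the rule; 16 purple points lie to its right, and the black points all do because of the rule.

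Probes annotated with several genes listed a member of the set in 2 cases, and their values cannot be assigned to it. Probe 3160, which lists 3 genes including GH9B16, had 0.565, 0.571, 0.639 and 0.589 in tic40, against 1.40 and 1.46 in WT samples 3 and 4 and 0.355 and 0.374 in WT samples 1 and 2. It thus had the same order as the probe of GH9B16 itself, number 3148, which is close to it in the numbering. Probe 3089, which lists 4 genes including AT4G32340, had the WT pairs the other way round, with 0.265 and 0.258 in WT samples 3 and 4 and 0.344 and 0.411 in WT samples 1 and 2.

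Other genes whose roles are well known were looked up in 13 lists of 113 loci, covering the circadian clock, light signalling, photosynthesis, heat, cold and dehydration, senescence, defence and markers of root, flower, seed and epidermis. Only 7 of these loci had a measured probe of their own and 0 were among the 33 genes, so the lists do not characterise the set. None of the listed clock, light signalling, heat, cold and dehydration, senescence, defence, root, seed or epidermis loci had such a probe, and genes of these kinds outside the lists were not looked up. The 7 were the photosystem and antenna genes PSAN, PSBY, LHB1B2 and PSBW, the Calvin cycle enzymes SBPASE and PRK, and SPL, a regulator of anther and ovule development. In all 7 the mean of WT samples 3 and 4 was below that of WT samples 1 and 2. The ratios ran from 0.289 for SPL to 0.910 for PSBW. Among the 608 genes with a probe of their own, 284 had this sign. For PSAN, PSBY and SBPASE the log2 difference was smaller in size than the gap between WT samples 3 and 4. PSBW, PSBY and SBPASE lay closest to 1, with the last 2 at 0.893 and 0.886. Gene length did not set the 33 genes far apart, with a median of 2274 bp for them and 2114.5 bp for all genes with a probe of their own.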

How the data were processed

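The deposited table holds 1 intensity per probe and array for 3439 probes, on a linear relative scale that is never negative; how the authors scanned, background-corrected and scaled them is not given in the sources used here. Arrays have no sequencing depth, and their number limits the precision. Gene names came from the platform annotation (692 probes with 1 gene, 870 with several, 1877 with none), 690 of the 692 matching the TAIR10.1 gene table, from which chromosomes and gene order were taken. That table holds no product names, so loci without a symbol are given no role, and promoters were not used here.

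Values were quantile-normalised with limma 3.58.1 in R 4.3.3. For the genotype fit (lmFit, eBayes, two-sided, Benjamini-Hochberg over 3318 probes above 0 on any array), zeros were set to percentile 1 of the positive values of the array. The procedure was checked on simulated data whose noise followed the spread of the tic40 arrays. Those data had no split between WT pairs, so the check does not show how the fit behaves with that split. The sample numbers are shared between the genotypes but are not said to mark a batch, so blocking by number was kept as an alternative. Same-numbered tic40 and WT samples deviated together across probes (r = 0.254 to 0.310 for the 4 numbers). The genes, lists and tests were chosen with earlier results of these data known. Named genes follow the rule of the 8 largest and 3 smallest WT distances, the 3 largest tic40 differences, and those with a named function; the keyword search for the last found GH9B16 and CHL, CHL only by a chance match of letters, and LPA19 was added because it is named. Other scalings, filters, single samples left out and centring by probe number were tried as alternatives.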

Additional observations from a re-analysis of the deposited data

Results flagged for a closer look

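AT1G62150 had a normalised intensity of 0.899 in tic40 sample 2, while the other 3 tic40 samples lay between 0.763 and 0.779. This sample's gap to its nearest neighbour was 0.874 of the whole range of the 4 samples on the log2 scale, above Dixon's 95% critical value for 4 samples. It was the single such case among the tic40 values of the 33 genes. Chance alone would flag about 1 in 20 such groups of 4 values, so 1 among 33 does not stand out. The rule also confines the tic40 values between the WT pairs, so that rate is only nominal. The WT values, which the selection rule splits into a low and a high pair, are not counted here.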

How the results depend on the processing

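The number of genes that met the rule was 121 with the values as deposited, where the median log2 difference between the WT pairs over all probes was 0.64 against 0.07 after quantile normalization. It was 50 without a minimum distance, 11 with a minimum of 1.5, 199 for probes of any annotation, and 34 to 47 when single samples were left out. As deposited, the median distance between the WT pairs of the 33 genes was 2.19 on the log2 scale and the median tic40 position 64.5%, and 31 of the 33 still met the rule; with each array divided by its median, the distance was 1.58 and 32 met it. Centring within the steps of probe number gave a median distance of 1.13, and adding the remainders 0.93, with a median tic40 difference (samples 3 and 4 minus 1 and 2) of -0.052. Leaving out single samples gave 1.33 to 1.45 for the distance, 0.08 to 0.12 for the tic40 difference and 43.9% to 48.6% for the position.

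The genotype fit called 5 of all probes with the replicate block, and 40, 43, 47 and 48 without tic40 samples 1 to 4, 126 without WT sample 3 and 125 without WT sample 4; the range over all single samples left out was 40 to 242. None of these settings called any of the 33 genes, and neither did limma with a trend (0). Fitted in samples 1 and 2 alone, limma called 1012 probes, among them 12 of the 33 genes, all higher in tic40 (13.5% of all probes were); in samples 3 and 4 alone it called 2000, among them 30 of the 33 genes, all lower in tic40 (34.9% of all probes were). The selection rule fixes those directions, and 2 arrays against 2 measure only the spread within a pair. Among 363 distances of single genes under other scalings or with a sample left out, 0 fell below 0 and 9 below 1. The rule had required at least 1 from the same values, so these counts do not measure stability. They also leave out centring by probe number. After centring within steps 15 of the 33 genes had a distance below 1, and 17 after adding the remainders. Causes of these shifts were not tested.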
